A study of Mus musculus with 12 samples.

Results

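The 31 genes described here are the p53 regulator *Trp53* and 30 genes listed as p53 targets. They were taken by name out of 38911 genes with a transcript in the tables, from a list chosen with earlier results of these data known. They were measured in mouse gastruloids, which are aggregates of embryonic stem (ES) cells that break symmetry and elongate in culture like the posterior embryo. The ES cells were E14TG2a, an established mouse line, grown here in 2i and LIF. Gastruloids of all groups received the Wnt agonist CHIR99021 on day 2, were treated from day 3 and were harvested on day 4. The control group stayed in 1× glucose (21.25 mM), and the others were moved to no glucose (0×), to 3× glucose (63.75 mM) or to 1× glucose with 5 mM 2-DG. 2-DG (2-deoxy-D-glucose) is a glucose analog that hexokinase phosphorylates but glycolysis cannot use further. Each group has 3 libraries of polyA RNA, 1 from each of ES cell passages 13, 15 and 16, so that 12 libraries were compared. A library holds the pooled gastruloids of a treatment and passage, and by the study's methods treatments were done on gastruloids of the same plate. All cells come from a single cell line, which limits what the p-values cover.

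p53, the protein made from *Trp53*, is a transcription factor that is held low by the ubiquitin ligase Mdm2 and is stabilized under DNA damage, nucleotide shortage, ribosome stress and other strains. It binds a response element built of a pair of half-sites and switches on genes for cell cycle arrest, apoptosis, DNA repair and metabolism, among them *Mdm2* itself, which closes a negative feedback loop. Because p53 is controlled mainly at the protein level, its activity is usually read from its targets rather than from *Trp53* mRNA. Mouse ES cells carry abundant p53, and p53 activity shapes which cells survive as they leave pluripotency.

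Promoters were examined for the half-site, since p53 acts through this element. RefSeq gives a promoter window, from 250 bases before to 50 bases after the start site on GRCm38.p6, for 23 of the 31 genes. The p53 half-site consensus, 10 bases long and the same on both strands, occurs without a mismatch in a window of 12 of these 23 genes (52.2%). Of all 27025 genes with a window, 2582 (9.55%) hold one, and of all 32851 windows 2745 (8.36%). The 12 genes are *Trp53*, *Mdm2*, *Ccng1*, *Pml*, *Ppm1d*, *Cdkn1a*, *Gadd45a*, *Aen*, *Bax*, *Ei24*, *Polk* and *Sesn1*. A pair of perfect half-sites spaced as in a full site, with at most 13 bases between them, was found in 24 of the 32851 windows. Among the members only that of *Cdkn1a* held such a pair. A match is only a match of letters, and response elements in introns or farther upstream lie outside these windows. The window of *Cdkn1a*, which codes for the cell cycle inhibitor p21, is shown whole, since it holds this pair. The matches, in capitals, begin 73 and 51 bases before the start site and are 12 bases apart. The 10 bases directly after the second match miss the consensus only at their first base and are not marked. Which of these stretches p53 binds near this start site was not examined. This start site is the most upstream of the gene, and which of its transcripts begins there was not examined. For *Mdm2*, *Ccng1*, *Ei24* and *Polk*, the genes with a match whose level rose in 2-DG, 100 bases around the match are shown, each on the strand of its gene.
Cdkn1a, chr17:29090729-29091028, plus strand: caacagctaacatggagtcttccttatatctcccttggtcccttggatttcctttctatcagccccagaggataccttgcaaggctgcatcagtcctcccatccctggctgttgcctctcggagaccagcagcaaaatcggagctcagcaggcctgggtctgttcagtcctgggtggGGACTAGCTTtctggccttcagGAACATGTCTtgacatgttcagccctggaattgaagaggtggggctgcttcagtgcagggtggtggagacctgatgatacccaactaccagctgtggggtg
Mdm2, chr10:117710890-117710989, minus strand: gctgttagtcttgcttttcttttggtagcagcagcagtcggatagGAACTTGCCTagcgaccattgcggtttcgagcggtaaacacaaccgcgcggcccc
Ccng1, chr11:40755417-40755516, minus strand: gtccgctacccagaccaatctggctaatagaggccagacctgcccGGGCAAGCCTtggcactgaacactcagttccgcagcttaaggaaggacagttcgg
Ei24, chr9:36797290-36797389, minus strand: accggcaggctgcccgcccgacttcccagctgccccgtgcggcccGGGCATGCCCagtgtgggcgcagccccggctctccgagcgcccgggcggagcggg
Polk, chr13:96519338-96519437, minus strand: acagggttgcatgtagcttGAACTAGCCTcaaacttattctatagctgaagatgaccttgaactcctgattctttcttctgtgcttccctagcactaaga
The matches in *Mdm2*, *Ccng1*, *Ei24* and *Polk* begin 186, 185, 10 and 231 bases before the start site of their window. For *Polk* this is an internal start site, 23392 bases downstream of the 5′ end of the gene, and the window of *Sesn1* with a match is internal as well (76865 bases downstream). At the most upstream start site alone, 10 of the 23 genes (43.5%) hold a match, as against 8.34% of all genes.

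Levels are given as CPM, which are counts scaled to the size of a library with TMM factors. Libraries held 31902471 to 45956080 counts, and all 31 genes had a count in some library. Genes with very few counts were left out of the test, which removed *Dram1* alone among the members, so that 30 were tested among 16966 genes. Per kilobase of transcript, the measure that allows a comparison between genes, the mean level in 1× glucose was highest for *Bax* (163 CPM per kilobase), *Ccng1* (162) and *Trp53* (134). *Ei24* (82.9) and *Cdkn1a* (79.0) followed. *Perp* (1.79), *Pmaip1* (1.28), *Fas* (0.994) and *Dram1* (0.0786) were lowest. By this measure the RNA of the regulator and of an arrest gene was among the 5 most abundant of the members in the control group.

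The first comparison asked how the members responded to 2-DG. In 2-DG against 1× glucose, 10 of the 30 tested members were past the threshold of 0.05 for the adjusted p (quasi-likelihood test of edgeR), 9 of them higher and 1 lower. Of all genes tested, 17.6% passed, with 9.12% higher and 8.51% lower. The members that rose were *Mdm2*, *Ccng1* and *Trp53inp1* of the feedback genes, *Apaf1*, *Ei24* and *Perp* of the apoptosis genes, the death receptors *Tnfrsf10b* and *Eda2r*, and the DNA polymerase gene *Polk*. The repair gene *Xpc* fell. Changes were small, with only *Perp* near a doubling (1.99-fold), and the median log2 fold change was 0.12 over the 30 members and 0.00 over all genes. *Cdkn1a*, the best known target, did not pass.

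**Figure D1:**
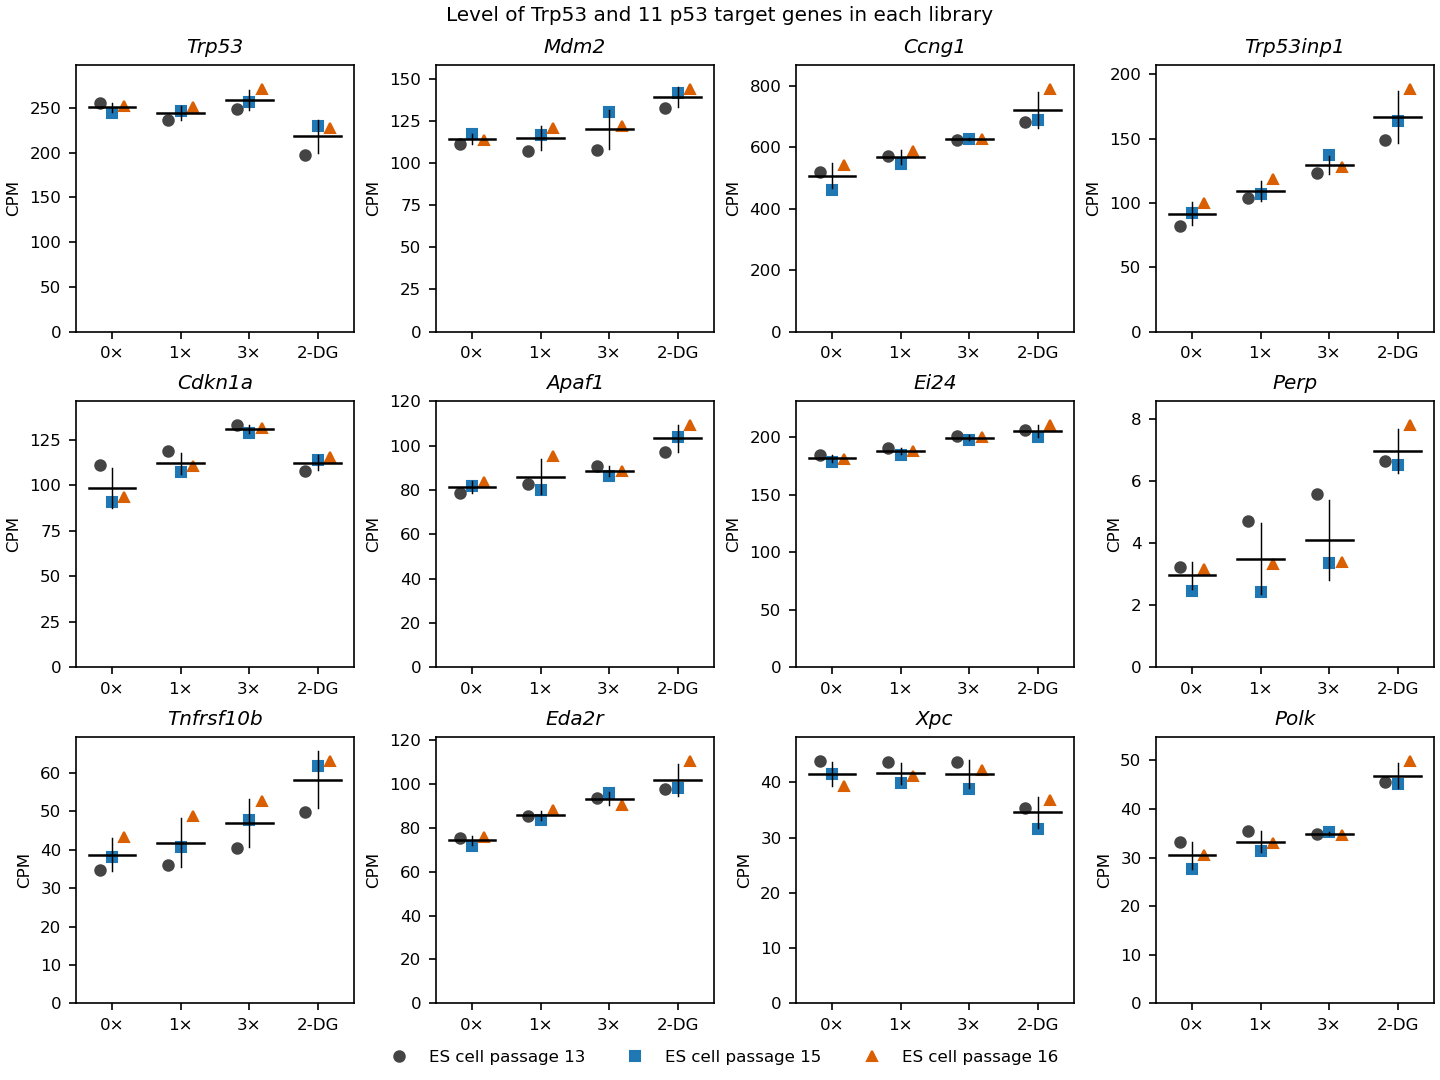
CPM (vertical axis, starting at 0) of 12 genes in each library, by treatment (0×, 1× and 3× glucose, 2-DG). Points are libraries, with a symbol for each ES cell passage, horizontal bars are group means and vertical bars are SDs (n = 3). *Trp53* and *Xpc* are lowest in 2-DG, *Cdkn1a* is highest in 3× glucose, and the other 9 are highest in 2-DG.

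*Trp53* read 236, 246 and 250.5 CPM in 1× glucose at passages 13, 15 and 16, and 197, 230 and 228 CPM in 2-DG. All 2-DG libraries lay below all controls. The share of all genes whose groups are separate in 2-DG is not given, so separation is only description, here and in the genes below. The log2 fold change was −0.16 ± 0.06 (SE, adjusted p = 0.0887), which misses the threshold. With the ES cell passage as a replicate block, a fit that compares libraries of the same passage, it was −0.17 with an adjusted p of 0.0143. *Trp53* was also lower in 2-DG than in 0× glucose, where it read 255, 245 and 252 CPM (log2 fold change −0.20 ± 0.06, adjusted p = 0.0413). It passed with the block as well (adjusted p = 0.00476). Without the block this call was lost whichever library of either group was left out. The same held when genes with low counts were kept and in a fit of only these groups.

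Among the feedback genes, *Mdm2*, the ligase that degrades p53, read 107, 116 and 121 CPM in 1× glucose and 132, 142 and 144 CPM in 2-DG. The groups did not overlap, and the log2 fold change was 0.28 ± 0.07 (adjusted p = 0.0226). *Ccng1*, which codes for cyclin G1, a partner of Mdm2, was the most abundant member in CPM, at 572, 545 and 587 in 1× glucose and 683, 689 and 788 in 2-DG. It rose in every passage (log2 fold change 0.34 ± 0.07, adjusted p = 0.00836). *Trp53inp1*, whose product promotes p53 phosphorylation and autophagy, rose from 103, 107 and 118 CPM to 149, 164 and 188 CPM. This was the largest rise of the group, 1.52-fold (log2 fold change 0.61 ± 0.10, adjusted p = 0.00234). *Ppm1d*, a phosphatase gene, was at 50.3 to 51.5 CPM in the controls and 50.6 to 55.5 CPM in 2-DG, and *Pml*, of the nuclear bodies, at 55.9 to 72.2 and 55.1 to 64.0 CPM. Neither passed, and their groups overlapped.

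None of the 5 arrest genes passed without the block. *Cdkn1a* read 119, 107 and 110.3 CPM in 1× glucose and 108, 114 and 115 CPM in 2-DG. The groups overlapped, and the log2 fold change was 0.00 with a 95% confidence interval of −0.15 to 0.16 (adjusted p = 0.975). By contrast, the intervals of *Trp53inp1* (0.40 to 0.82), *Ccng1* (0.19 to 0.50) and *Polk* (0.33 to 0.66) lie above that of *Cdkn1a*. *Gadd45a*, a stress sensor gene, was at 10.7 to 13.7 CPM in the controls and 8.47 to 9.72 CPM in 2-DG, without overlap (log2 fold change −0.39 ± 0.16, adjusted p = 0.117). *Plk2*, a kinase gene, and *Zmat3*, of an RNA-binding protein, had estimates of 0.32 and 0.25 (adjusted p = 0.140 and 0.102), and *Btg2*, an antiproliferative gene, −0.11 (adjusted p = 0.529).

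Of the 8 genes grouped here as apoptosis genes apart from the death receptors, 3 rose. *Apaf1*, the scaffold of the apoptosome, read 82.9, 80.2 and 95.2 CPM in 1× glucose and 97.0, 104 and 109 CPM in 2-DG (log2 fold change 0.26 ± 0.07, adjusted p = 0.0220). *Ei24*, of an endoplasmic reticulum membrane protein, went from 190.4, 185 and 188 CPM to 206, 200.2 and 210.2 CPM, a rise of 1.09-fold with little spread (log2 fold change 0.13 ± 0.03, adjusted p = 0.0275). *Perp*, of a membrane protein of desmosomes, had few counts and the largest change, from 4.72, 2.45 and 3.33 CPM to 6.65, 6.51 and 7.80 CPM. None of these 3 genes overlapped between groups, and for *Perp* the log2 fold change was 1.00 ± 0.26 (adjusted p = 0.0242). The pro-death genes of the BCL-2 family did not pass: *Bbc3*, which codes for Puma, had an estimate of 0.14 (adjusted p = 0.382), *Pmaip1*, for Noxa, 0.07 (adjusted p = 0.935) and *Bax* 0.11 (adjusted p = 0.0853). *Phlda3*, of an Akt inhibitor, stood at 0.24 (adjusted p = 0.140), and the exonuclease gene *Aen* at 0.00 (adjusted p = 0.969).

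Of the 4 death receptor genes, the 2 receptors with ample counts rose. *Tnfrsf10b*, the mouse TRAIL receptor, read 36.1, 40.6 and 48.7 CPM in 1× glucose and 49.7, 61.9 and 63.1 CPM in 2-DG. The groups were separate, with a difference of 0.48 ± 0.14 on the log2 scale (adjusted p = 0.0398). *Eda2r*, the receptor of ectodysplasin A2, read 85.4, 83.8 and 88.1 CPM and then 97.6, 98.0 and 110.4 CPM (log2 fold change 0.25 ± 0.05, adjusted p = 0.0110). *Pidd1*, of a death domain adaptor, had an estimate of 0.16 (adjusted p = 0.236). *Fas* was at 0.868 to 1.23 CPM in the controls and 0.409 to 0.986 CPM in 2-DG, too few counts to show a difference (log2 fold change −0.60 ± 0.40).

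The repair genes split. *Polk*, of a translesion DNA polymerase, rose from 35.5, 31.3 and 33.0 CPM to 45.4, 45.2 and 49.8 CPM, and had the lowest adjusted p of all members (log2 fold change 0.49 ± 0.07, adjusted p = 0.00192). *Xpc*, the damage sensor of nucleotide excision repair, fell from 43.7, 39.9 and 41.2 CPM to 35.4, 31.5 and 36.8 CPM (log2 fold change −0.27 ± 0.07, adjusted p = 0.0326). In both genes the groups did not overlap. *Ddb2*, of the same repair pathway as *Xpc*, had an estimate of 0.22 ± 0.26, *Rrm2b*, a ribonucleotide reductase subunit, −0.31 ± 0.13 and the endonuclease gene *Ercc5* −0.07 ± 0.04, and none of these 3 passed. Among the metabolic targets, *Sesn1*, a brake on mTORC1, was at 25.8 to 27.8 CPM in 1× glucose and 26.7 to 31.4 CPM in 2-DG, and *Tigar*, which lowers glycolytic flux, at 23.8 to 30.5 and 23.5 to 28.7 CPM. *Dram1*, an autophagy gene, had 12, 2 and 16 counts in the 1× glucose libraries and 0 counts in each 2-DG library. It was also at 0 in the 0× library of passage 16 and the 3× libraries of passages 15 and 16. The mean of 1× glucose was 2.65-fold above a floor of 3 counts per library in 2-DG, but its passage 15 library lay below that floor. The exact permutation p (two-sided, 3 against 3) was 0.1, the smallest that this design allows. Against 0× and 3× glucose the exact permutation p for 2-DG was 0.4 and 1.

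With passage as a replicate block, 18 members passed in 2-DG against 1× glucose, 14 higher and 4 lower, while 41.3% of all genes did, 21.1% higher and 20.2% lower. The 10 genes above all passed again. *Plk2*, *Zmat3*, *Bax*, *Phlda3* and *Pidd1* joined those that were higher, and *Trp53*, *Gadd45a* and *Rrm2b* those that were lower. The count of 10 without the block depends on single libraries: *Ccng1*, *Trp53inp1* and *Polk* were called whichever library of the pair of groups was left out, but without the 1× library of passage 15 no other member was (3 in all). Without the 2-DG library of passage 15 the count was 4 (*Eda2r* in addition), without that of passage 16 it was 5 (*Eda2r* and *Xpc*), and without the 1× library of passage 13 it was 6 (*Ei24*, *Perp* and *Eda2r*). *Ei24*, *Perp* and *Xpc* also lost the call without the 1× library of passage 16 (8 called, *Zmat3* among them) or the 2-DG library of passage 13 (9 called, with *Plk2* and *Zmat3*).

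**Figure D2:**
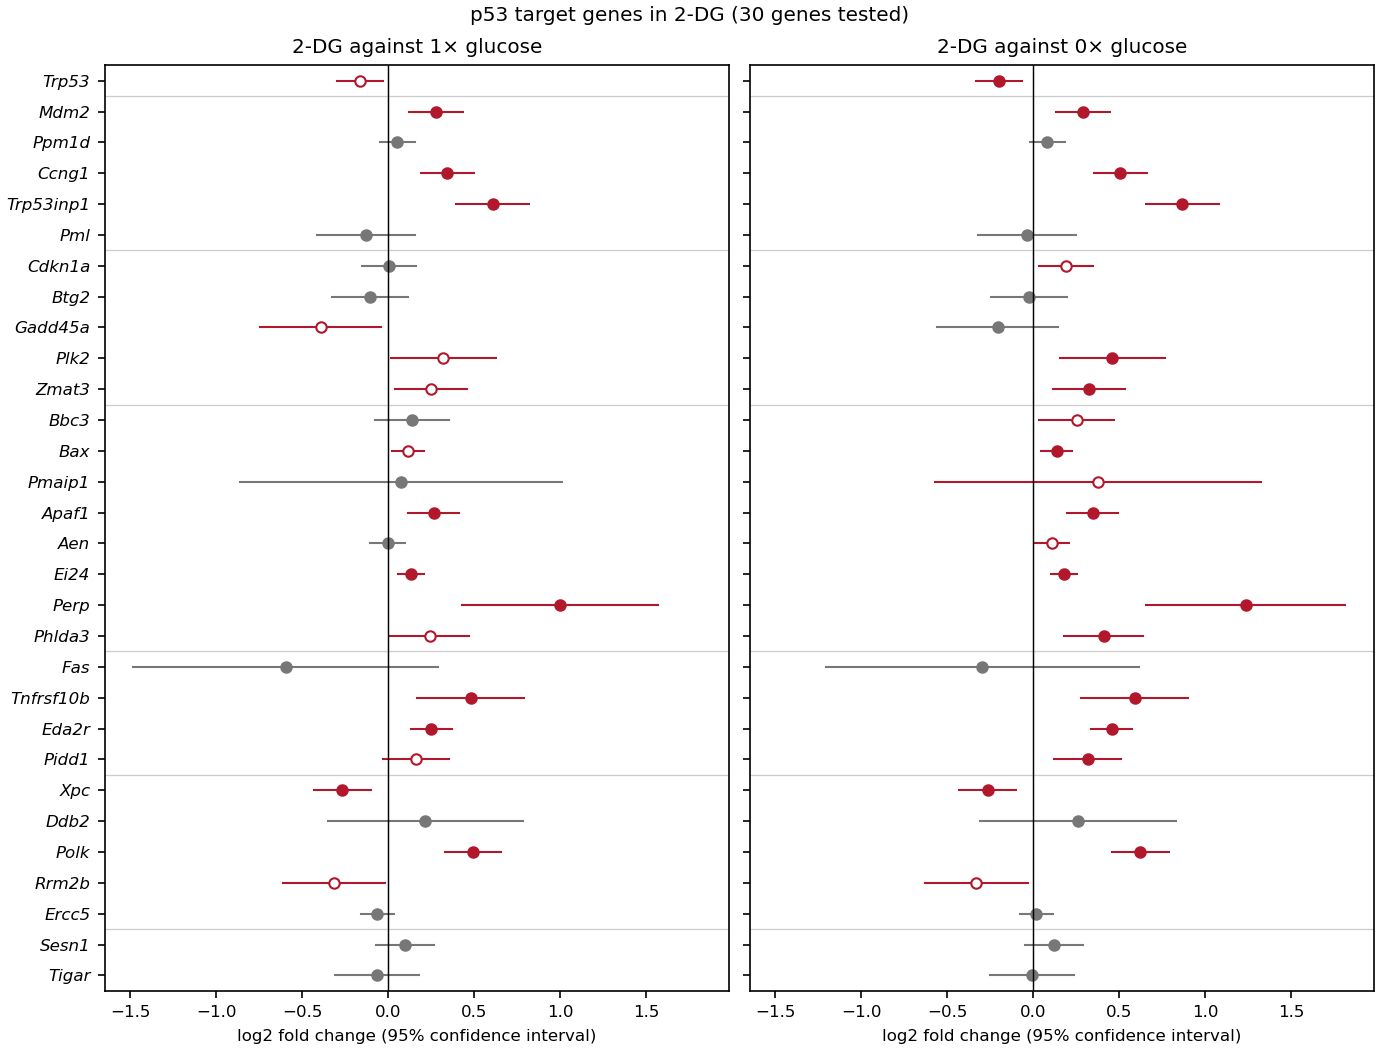
Log2 fold change (horizontal axis) of the 30 tested members in 2-DG against 1× glucose (left) and against 0× glucose (right), with 95% confidence intervals, grouped by role from the regulator (top) to metabolism (bottom). Filled red points passed an adjusted p of 0.05, open red points passed only with passage as a replicate block, and grey points passed neither. On the left 9 members are called higher and *Xpc* lower, and *Cdkn1a* sits at 0.

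Against 0× glucose, which shares the 2-DG libraries with the comparison above, 16 members passed, 14 higher and 2 lower (18.9% of all genes, 9.86% higher and 9.04% lower). The 2 lower ones were *Trp53* and *Xpc*. *Trp53* lost this call whichever library was left out, and *Xpc* kept it only without the 0× or the 2-DG library of passage 16. Besides the 9 genes named before, *Plk2*, *Zmat3*, *Bax*, *Phlda3* and *Pidd1* were higher. The largest estimates were those of *Perp* (1.23 ± 0.26), *Trp53inp1* (0.87 ± 0.10) and *Polk* (0.62 ± 0.07). *Cdkn1a* again did not pass (0.19 ± 0.07, adjusted p = 0.0880, and adjusted p = 0.0207 with the block). Without single libraries the count was 8 to 13, and it was 8 without the 0× library of passage 15 or the 2-DG library of passage 15 or 16, 9 without the 0× library of passage 13 and 10 without that of passage 16.

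The second question was whether the members followed the amount of glucose. No member passed in 0× against 1× glucose, where 2 genes of all (0.0118%) did, nor in 3× against 1× glucose, where no gene did (0%). DESeq2 also called no member in either comparison. At an unadjusted p under 0.05, 5 members stood out in 0× glucose (1.8% of all genes) and 7 in 3× glucose (1.05% of all genes). In 0× glucose 28 of 30 estimates were below 0, with a median of −0.10. In 3× glucose 25 of 30 were above 0, with a median of 0.09, and the medians of all genes were 0.00 in both. Both comparisons share the 1× libraries. The lowest unadjusted p-values in 0× glucose were those of *Eda2r* (log2 fold change −0.21 ± 0.05, unadjusted p = 0.00316) and *Trp53inp1* (−0.26 ± 0.10, unadjusted p = 0.0207). In 3× glucose they were those of *Cdkn1a* (0.23 ± 0.07, unadjusted p = 0.00926) and *Ei24* (0.09 ± 0.03, unadjusted p = 0.0293).

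Because the 2 sets of estimates leaned in opposite directions, 3× glucose was compared directly with 0× glucose, a test added after these values were seen. Without the block no member passed, as against 0.0118% of all genes, and 14 of 30 had an unadjusted p under 0.05 (4.33% of all genes). With passage as a replicate block, 10 of 30 members passed and all were higher in 3× glucose, while 0.802% of all genes passed and 0.572% were higher. These are 10 of 136 genes called. The 10 members were *Ccng1*, *Trp53inp1*, *Cdkn1a*, *Plk2*, *Aen*, *Ei24*, *Tnfrsf10b*, *Eda2r*, *Pidd1* and *Ercc5*. DESeq2 without the block called 7 members among 31 genes (0.251% of the genes it tested), all of them among these 10. The estimates were close in the fits with and without the block, with a median of 0.19 over the members in each.

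*Cdkn1a* read 111, 91.0 and 93.4 CPM in 0× glucose and 133, 129 and 132 CPM in 3× glucose. The groups did not overlap, and the log2 difference with the block was 0.41 ± 0.06 (adjusted p = 0.0182). *Trp53inp1* rose from 82.2, 92.2 and 100.1 CPM to 123, 137 and 128 CPM (0.50 ± 0.05, adjusted p = 0.00751). *Eda2r* went from 75.5, 71.9 and 75.8 CPM to 93.7, 96.2 and 90.3 CPM (0.33 ± 0.05, adjusted p = 0.0182). In each of these 3 genes the 1× libraries lay between: within every passage the level rose from 0× to 1× and again to 3× glucose.

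*Ccng1* showed the same order, at 519.8, 461 and 542 CPM in 0× glucose and 624, 627 and 628 CPM in 3× glucose (0.31 ± 0.05, adjusted p = 0.0266). *Pidd1* read 71.9, 64.1 and 76.2 CPM and then 84.0, 78.4 and 91.5 CPM (0.26 ± 0.03, adjusted p = 0.0159). *Aen*, at 211, 195 and 196 CPM in 0× glucose and 231, 230.5 and 239 CPM in 3× glucose, differed by 0.22 ± 0.04 (adjusted p = 0.0320). None of these 3 overlapped between 0× and 3× glucose. *Plk2* (0.36 ± 0.06), *Tnfrsf10b* (0.28 ± 0.05), *Ercc5* (0.19 ± 0.03) and *Ei24* (0.14 ± 0.03) were the other 4, with adjusted p-values of 0.0333 to 0.0455.

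**Figure D3:**
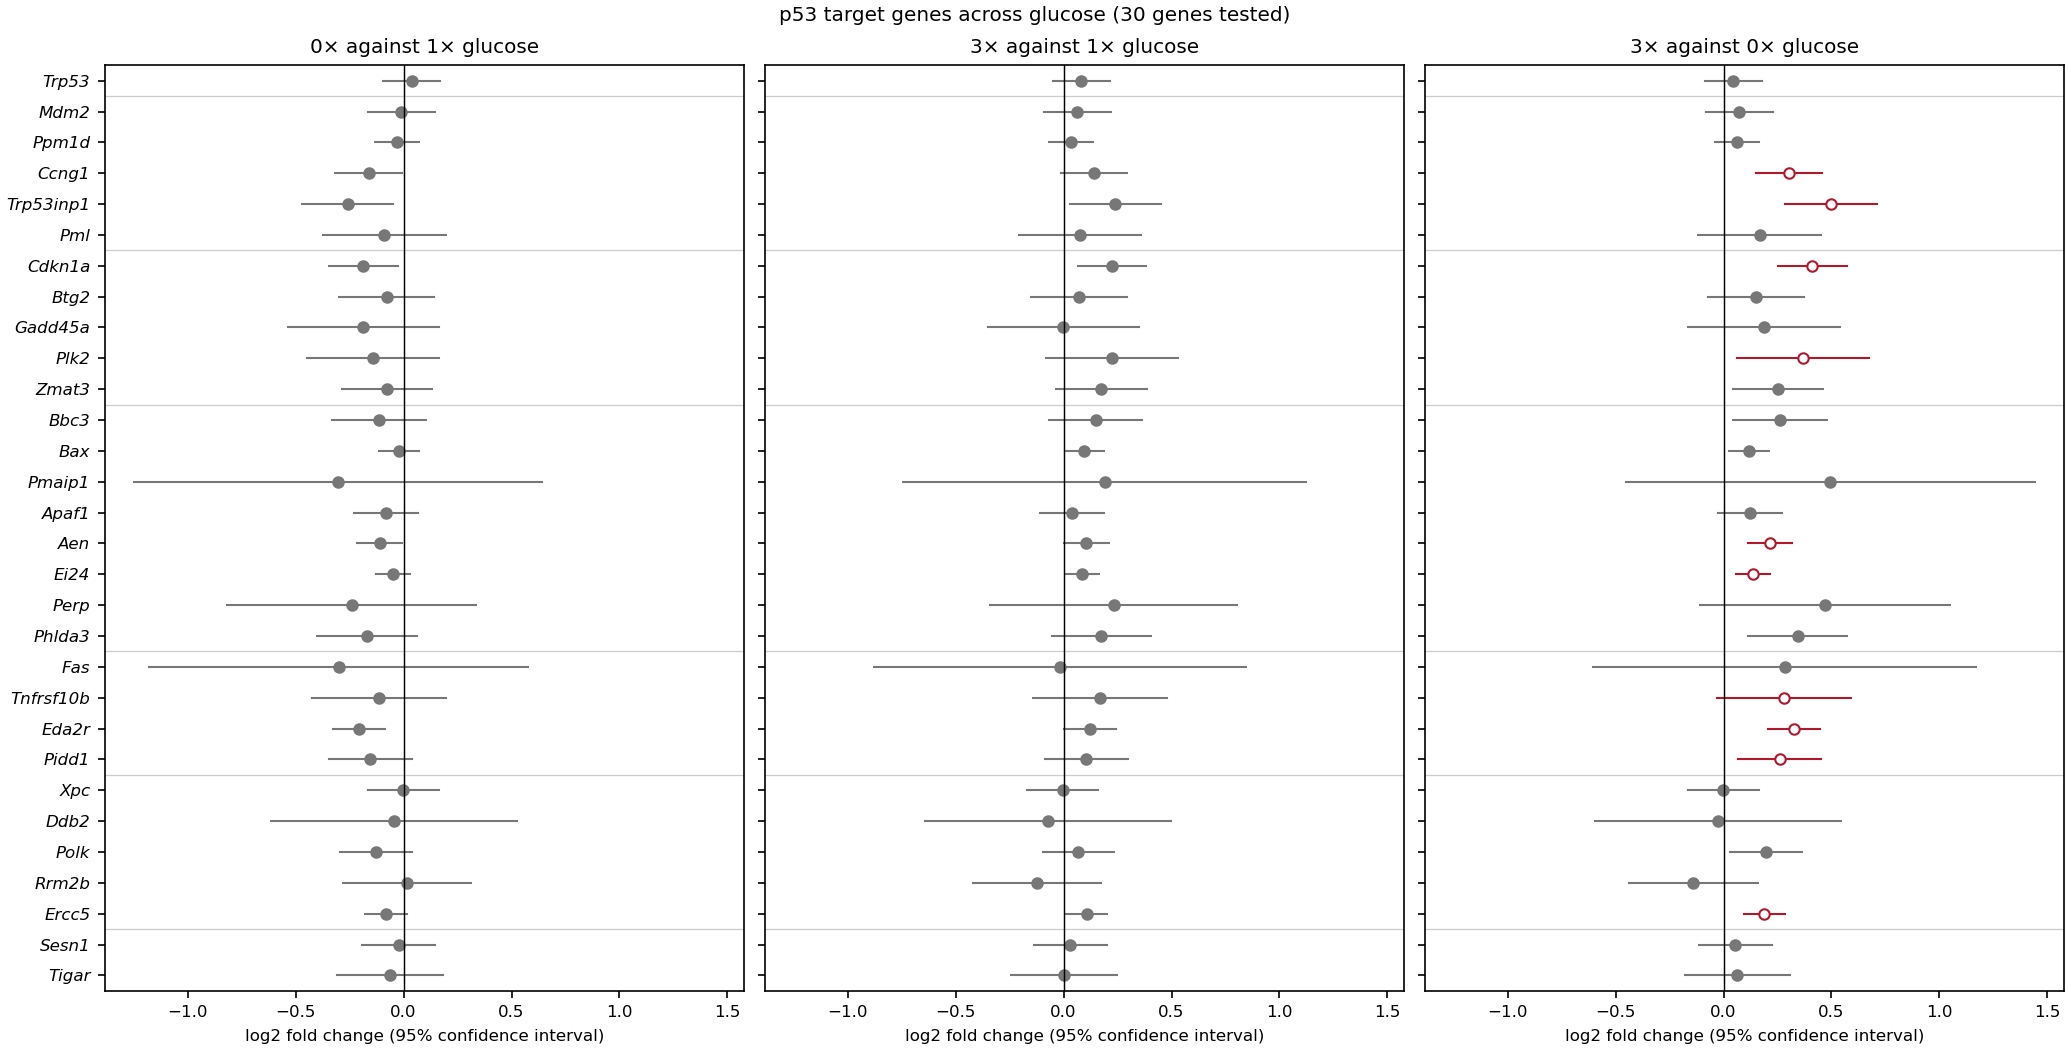
Log2 fold change (horizontal axis, the same range in each panel) of the 30 tested members between glucose concentrations, with 95% confidence intervals, grouped by role. Red open points passed an adjusted p of 0.05 only with passage as a replicate block, and grey points did not pass. Most points lie left of 0 in 0× against 1× glucose (28 of 30) and right of 0 in 3× against 0× glucose (27 of 30), where 10 are red.

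In 17 of the 30 tested members every 3× library was above every 0× library, and the same held for 4.61% of all genes. The group means followed the order of glucose in 24 members (23.3% of all genes), and in 15 members the level followed that order within each of the 3 passages (3.18% of all genes). The 6 tested members whose means did not follow it were *Gadd45a*, *Fas*, *Trp53* (3× against 0×, log2 fold change 0.05, 95% confidence interval −0.09 to 0.18), *Xpc* (0.00, −0.17 to 0.16), *Ddb2* (−0.03, −0.60 to 0.54) and *Rrm2b* (−0.14, −0.44 to 0.16). The metabolic genes *Tigar* and *Sesn1* followed it with small estimates of 0.06 (−0.18 to 0.31) and 0.05 (−0.11 to 0.22). So did *Mdm2* (0.07, −0.08 to 0.23), at 111, 117 and 114 CPM in 0× glucose and 107, 130.4 and 122 CPM in 3× glucose. The calls rest on few libraries. With the block they fell to 0 without the passage 15 library of either group, to 1 without the 3× library of passage 13 or the 0× library of passage 16 (*Trp53inp1* in both), and to 2 without the 3× library of passage 16, and 8 passed without the 0× library of passage 13. Without the block, *Cdkn1a* was the 1 member called when the 0× library of passage 13 was left out.

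2-DG and 3× glucose were then compared directly, also after the values were seen, since the same genes were not highest in both. Here 6 members passed, 3 higher and 3 lower in 2-DG (15.2% of all genes, 7.85% higher and 7.39% lower). *Polk* (log2 fold change 0.42 ± 0.07, adjusted p = 0.00449), *Trp53inp1* (0.37 ± 0.10, adjusted p = 0.0268) and *Apaf1* (0.22 ± 0.07, adjusted p = 0.0468) were higher in 2-DG. *Trp53* (−0.25 ± 0.06, adjusted p = 0.0214), *Ercc5* (−0.17 ± 0.04, adjusted p = 0.0239) and *Xpc* (−0.26 ± 0.07, adjusted p = 0.0374) were lower. *Cdkn1a* was below the 3× libraries in all 3 passages, at 108, 114 and 115 CPM against 133, 129 and 132 CPM (−0.22 ± 0.07, adjusted p = 0.0616). With the block, where 14 members passed and 38.8% of all genes did, the adjusted p of *Cdkn1a* was 0.0125. Without a single library 2 to 4 members passed, and *Polk* was among them each time.

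The passages were compared next, because the ES cell passage is the other way in which the labels say the libraries differ. Between passage 13 and the mean of passages 15 and 16, with treatment in the model, 10 members passed, 5 higher and 5 lower, beside 46.1% of all genes (23.3% higher and 22.8% lower). The libraries of a passage share a single ES cell culture, so p-values between passages describe these cultures and not passages in general. *Pmaip1*, a low member, changed the most. It read 3.98, 5.51, 5.95 and 5.39 CPM at passage 13 (in 0×, 1×, 3× glucose and 2-DG), 2.12, 2.53, 3.32 and 2.78 CPM at passage 15 and 2.40, 2.44, 2.72 and 2.88 CPM at passage 16. Every library of passage 13 was above all others, with a log2 difference of 0.97 ± 0.08 (adjusted p = 8.70e-06).

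*Tnfrsf10b* was lower at passage 13 (34.7, 36.1, 40.4 and 49.7 CPM) than at passage 15 (38.1, 40.6, 47.7 and 61.9 CPM) or 16 (43.2, 48.7, 52.8 and 63.1 CPM) in each treatment. The difference was −0.29 ± 0.04 (adjusted p = 8.43e-05). *Plk2* behaved alike, at 46.4, 48.3, 56.1 and 53.4 CPM at passage 13, 53.6, 58.9, 69.6 and 75.1 CPM at passage 15 and 49.0, 57.2, 66.4 and 76.5 CPM at passage 16 (−0.30 ± 0.05, adjusted p = 0.000549). Both genes were also higher in 2-DG than in 1× glucose in every passage, so their ranges overlap between passages. *Ddb2* (0.47 ± 0.10), *Perp* (0.40 ± 0.13), *Rrm2b* (0.24 ± 0.06) and *Btg2* (0.16 ± 0.05) were the others that were higher at passage 13, and *Tigar* (−0.19 ± 0.04), *Trp53inp1* (−0.17 ± 0.04) and *Mdm2* (−0.13 ± 0.03) the others that were lower. *Cdkn1a* did not pass (0.08 ± 0.04, adjusted p = 0.140). Without single libraries 8 to 12 members were called. *Btg2* and *Perp* lost the call without the 1× library of any passage or the 3× library of passage 13 or 16, *Btg2* also without the 0× library of passage 13 or 15 or the 2-DG library of passage 15, and *Perp* also without the 3× library of passage 15.

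Passages 15 and 16 were closer. *Gadd45a* (0.33 ± 0.08, adjusted p = 0.0467), *Pidd1* (0.22 ± 0.03, adjusted p = 0.00597) and *Bbc3* (0.22 ± 0.05, adjusted p = 0.0452) were higher at passage 16 and none was lower, against 4.2% of all genes called and 2.19% called higher. Of 30 estimates 26 were above 0 (50.4% of all genes), with a median of 0.08 over the members and 0.00 over all genes. *Pidd1* was called whichever library was left out, and it was the only member called without any single library of passage 16, without the 0×, 1× or 3× library of passage 15 or without the 1× library of passage 13. Anything else that differed between the gastruloid sets of the passages cannot be told apart from the passage.

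**Figure D4:**
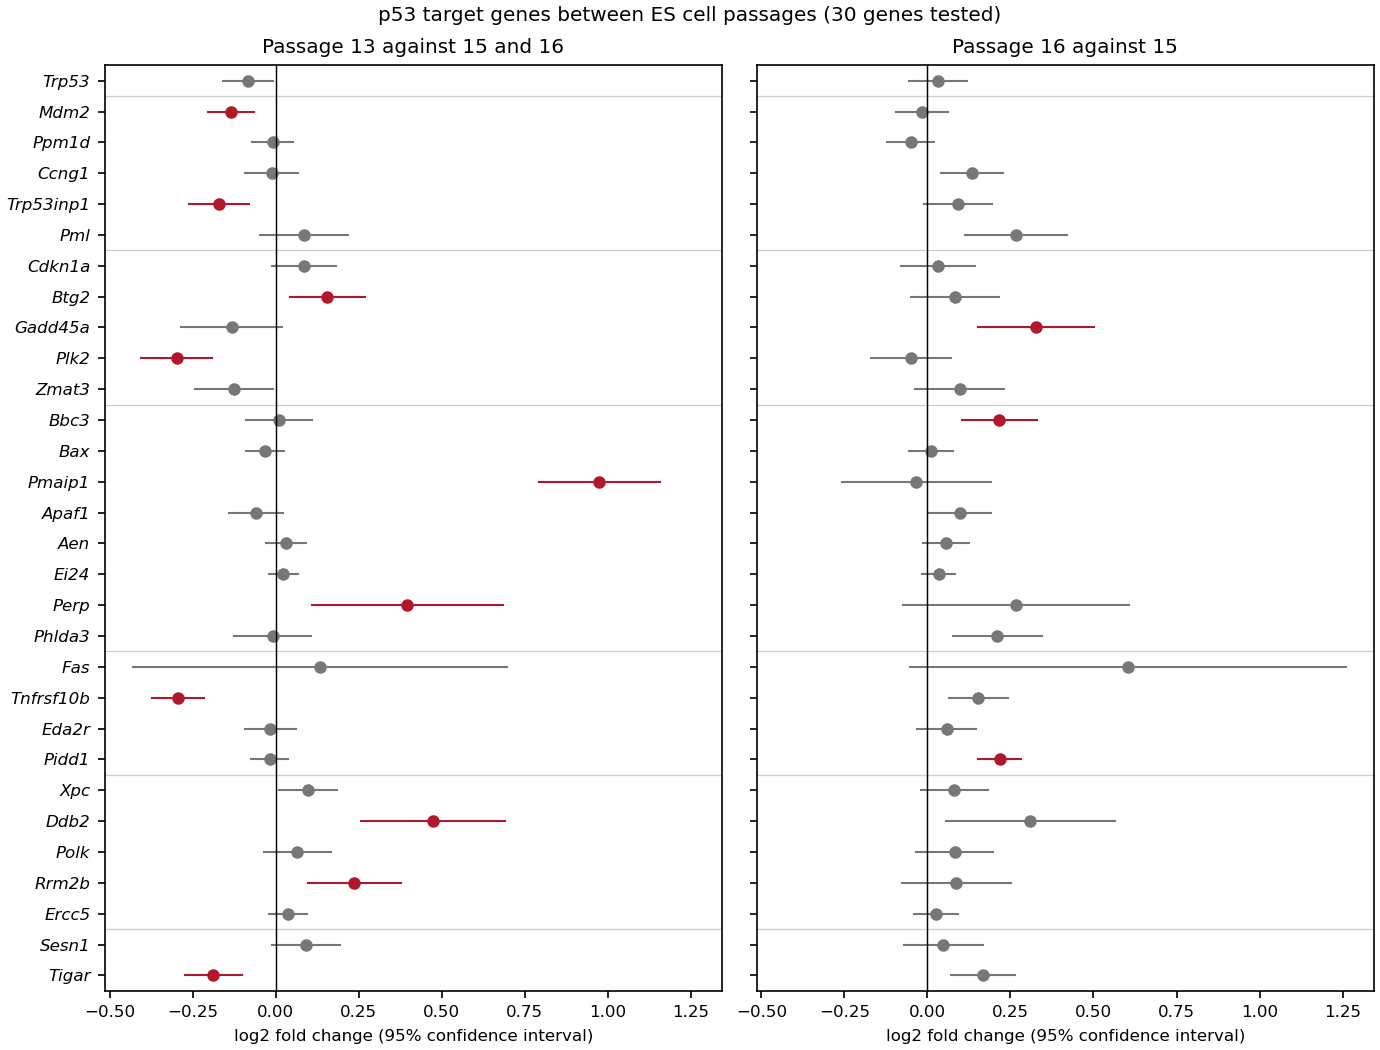
Log2 difference (horizontal axis) of the 30 tested members between ES cell passages, with treatment in the model and 95% confidence intervals, grouped by role. Filled red points passed an adjusted p of 0.05. *Pmaip1* stands out at 0.97 on the left, where 10 members passed, and 3 members passed on the right.

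Other genes of the pathway were read from lists that do not overlap the members. Of 18 tested upstream regulators, 4 were higher and 1 lower in 2-DG against 1× glucose (9.12% and 8.51% of all genes). The 3 with the lowest adjusted p were *Rchy1*, of a ubiquitin ligase of p53 (log2 fold change 0.29 ± 0.05, adjusted p = 0.00433), *Mdm4*, of the Mdm2 partner that masks p53 (0.26 ± 0.05, adjusted p = 0.00624), and the p53 relative *Trp73* (1.42 ± 0.34, adjusted p = 0.0178). *Atm*, the damage kinase, was the other one higher and *Trp53bp1* the one lower. Of 28 further p53 targets tested, 3 were higher and 4 lower, with a median of 0.05. *Mgmt* (−0.65 ± 0.13, adjusted p = 0.00659) and *Cdkn2aip* (−0.34 ± 0.07, adjusted p = 0.00996) fell and *Cgref1* (0.94 ± 0.20, adjusted p = 0.00917) rose. In 3× against 0× glucose with the block, 4 of these 28 were higher and none lower (0.572% of all genes were higher).

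Of 10 cell cycle genes that p21 and the DREAM complex are known to repress, 2 fell in 2-DG and none rose (8.51% of all genes fell and 9.12% rose). They were *Ccnb2* (−0.56 ± 0.05, adjusted p = 0.000121) and *Cdk1* (−0.23 ± 0.05, adjusted p = 0.00836), and the next, *Ccnb1*, did not pass (−0.10 ± 0.04, adjusted p = 0.145). *Cdkn1a* itself did not pass in this comparison. Of 10 targets of the stress factors ATF4 and CHOP, which answer amino acid shortage and endoplasmic reticulum stress, 7 rose and none fell, with a median of 0.71. The lowest adjusted p-values were those of *Atf3* (1.91 ± 0.23, adjusted p = 0.000592), *Asns* (0.66 ± 0.08, adjusted p = 0.000636) and *Atf5* (1.34 ± 0.18, adjusted p = 0.000950). The summed level of this list was 679 to 867 CPM in 2-DG, above the 573 to 669 CPM in 1× glucose. In 3× against 0× glucose none of the 10 passed, and the sums were 595 to 709 and 560 to 636 CPM. The part of this list in the change of the members was not tested.

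Markers of cell types were read too, and some of them moved with the treatments. In 2-DG against 1× glucose without the block, 9.12% of all genes were higher and 8.51% lower. In these bulk libraries, fewer cells of a type and less RNA per cell cannot be told apart. Of 6 primitive streak and mesoderm markers, 1 passed as lower in 2-DG and none as higher (*T*, log2 fold change −1.57 ± 0.36, adjusted p = 0.0136). Their sum was 326 to 547 CPM against 614 to 792 CPM in 1×, 667 to 824 CPM in 0× and 637 to 755 CPM in 3× glucose. The list split: *T*, *Tbx6* and *Msgn1* were lower in 2-DG than in 1× glucose in every passage, and *Mesp1* was higher in every passage. *Meox1* and *Tcf15* were higher at passage 13 only (1655 and 504 counts in 1× glucose, 3837 and 1082 in 2-DG). Of 4 neural markers, *Sox1* and *Pax6* rose, and the neural sums overlapped (103 to 179 and 106 to 163 CPM). *Nes*, with the most counts of the 4, was lower in CPM in 2-DG than in 1× glucose in every passage. Its counts were 5684, 3467 and 4331 in 1× glucose and 2917, 2635 and 2559 in 2-DG. *Sox3* was higher in 2-DG in every passage (1178, 304 and 271 counts in 1× glucose, 1655, 819 and 608 in 2-DG). Of 3 endoderm and 4 tested endothelial and blood markers, 1 each fell (*Trh* and *Etv2*). None of the 5 pluripotency markers passed in 2-DG against 1× glucose without the block. With it *Pou5f1*, *Nanog* and *Sox2* passed, all higher, beside 21.1% of all genes higher. The sum of the 5 was higher in 2-DG than in 1× glucose within each of the 3 passages, and it followed the order 0×, 1×, 3× glucose within each, as the levels of 15 members did. *Sox2*, which the study uses as a neural marker, had the most counts of the 5 in every library. The sum is therefore not a measure of pluripotent cells alone. The sums were 122 to 218 CPM in 2-DG, 71.7 to 166 CPM in 1× glucose, 68.5 to 142 CPM in 0× glucose and 81.8 to 171 CPM in 3× glucose. In 3× against 0× glucose with the block, all 5 estimates were above 0 and *Nanog* alone passed (log2 fold change 1.23 ± 0.17). By passage, the pluripotency sum was 142 to 218 CPM at passage 13 and 68.5 to 123 CPM at passages 15 and 16. Between these passages *Sox2* differed by 1.33 ± 0.05 on the log2 scale, *Pou5f1* by 0.29 ± 0.06 and the neural marker *Sox3* by 1.69 ± 0.08. Many markers of the other types were lower at passage 13, such as *Sox17* (−2.49 ± 0.15), *Kdr* (−2.37 ± 0.25) and *Meox1* (−1.77 ± 0.26). Of those types, *T* alone passed as higher (0.63 ± 0.16). Of all genes, 46.1% passed in this comparison. Fibroblast markers, which would show feeder cells, summed to 7.75 to 11.9 CPM in all libraries. Whether cell makeup had a part in the members' values was not tested.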

How the data were processed

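PolyA RNA of 12 libraries was sequenced, 3 per treatment. The authors deposited, for each library, the estimated counts of 120312 RefSeq transcripts, made per the labels with Trim Galore, HISAT2 (mm10), SAMtools, Picard and StringTie. Versions, annotation release and the strand setting of the counting are not given in the sources used here. All values are whole numbers, so that nothing was rounded. The 3 tables of comparisons hold the authors' DESeq2 fold changes and p-values and were not used.

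Transcripts were assigned to genes by accession in the RefSeq table of GRCm38.p6 (100% of counts) and summed per gene, because StringTie moves reads between transcripts of a gene. The share of *Trp53* counts on 1 transcript ran from 1.46% to 83.2% between libraries. The library kit keeps the strand, but whether the counting used it is not given, so genes that overlap on opposite strands are uncertain. Genes kept by filterByExpr (16966 of 38911) were fitted in edgeR 4.0.16 (R 4.3.3, TMM, glmQLFit and glmQLFTest, 12 libraries, treatment only), with Benjamini-Hochberg adjustment over all genes, two-sided tests and a threshold of 0.05. Standard errors come from the F statistic. Passages were compared with treatment as an additive term. Transcript lengths are medians over GENCODE M21 transcripts tied to the RefSeq accessions. The fits were tested on simulated counts. Depth was 31902471 to 45956080 counts, and floors of 3 counts cover counting error only.

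The labels give the ES cell passage of each library, which pairs libraries across treatments. Deviations from group means correlated at 0.0963 to 0.623 in the 18 pairs of libraries of a passage, and at no more than 0.191 in the 36 pairs that differ in passage and treatment (the 12 pairs within a treatment were at −0.667 to −0.194, negative because they share a mean). At most 1.88% of gene totals were identical between a pair of libraries.

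The members and lists were chosen with earlier results of these data known. Genes given in full are *Trp53*, *Cdkn1a*, *Mdm2*, the members called in 2-DG, 0× or 3× against 1× glucose and the 3 members with the lowest adjusted p between passages. Of each other list the 3 with the lowest adjusted p in 2-DG are named, and in 0× and 3× glucose the 2 members with the lowest unadjusted p. The comparisons of 3× glucose with 0× glucose and with 2-DG, and the genes named in them and in the marker lists beyond this rule, were added after the values were seen. Alternatives were no filter, passage as a replicate block (for passages, no treatment term), median-of-ratios factors, the most abundant transcript alone, DESeq2 1.42.0, only the groups or passages compared, and each library left out.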

Additional observations from a re-analysis of the deposited data

How the results depend on the processing

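The number of members called in 2-DG against 1× glucose, 10, was 18 with passage as a replicate block, 5 with only the groups compared, 1 with the most abundant transcript alone and 3 to 9 without single libraries. In 2-DG against 0× glucose, 16 became 21 with the replicate block, 11 without the filter, 9 with only the groups compared, 2 with the most abundant transcript alone and 8 to 13 without single libraries. In 3× against 0× glucose, 0 became 10 with the replicate block, 7 with DESeq2 and 13 with both, and 0 to 8 without single libraries, with or without the block. In 2-DG against 3× glucose, 6 became 14 with the replicate block, 10 with DESeq2, 3 without the filter or with only the groups compared, 1 with the most abundant transcript alone and 2 to 4 without single libraries. For passage 13 against the others, 10 became 3 without the treatment term or with the most abundant transcript alone. For passage 16 against 15, 3 became 6 with DESeq2 or only the passages compared, 1 without the filter, 0 without the treatment term or with the most abundant transcript alone, and 1 to 7 without single libraries. The estimate of *Cdkn1a* in 2-DG against 1× glucose, 0.00, turned to −0.0136 without the filter, to −0.122 with the most abundant transcript alone and ran from −0.0345 to 0.0483 without single libraries, and it was not called under any of them. The causes were not tested. Both single-condition comparisons, 0× and 3× against 1× glucose, gave 0 members under all alternatives run, the replicate block included. Few counts limit *Dram1*, *Fas*, *Pmaip1* and *Perp*.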
